A study of Homo sapiens with 2 samples.

Results

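The SR proteins and the hnRNP proteins are the general regulators of pre-mRNA splicing, and 33 of their genes were examined here in the RNA-Seq of HEK293T cells. The genes were chosen by symbol, and each symbol was matched through a GRCh37 annotation (GENCODE release 44 mapped to that build) to 1 of 57736 gene identifiers. All 33 genes had a row in both libraries. They comprised 13 SR and SR-like genes (8 canonical SR genes, SRSF10, SRSF11, SRSF12 and the pair TRA2A and TRA2B) and 20 genes of the hnRNP and PTB families. Both libraries were made from poly(A)+ RNA of untreated wild type cells of a single line, a derivative of human embryonic kidney in which the large T antigen of SV40 is expressed. The 2 libraries are named Replica 1 and Replica 2 and form 1 group, so no treated sample was compared. No label says whether they came from separate cultures, and the spread between them may be technical. They held 10593491 and 10104118 estimated counts, and the limit that 3 counts allow was 0.283 and 0.297 CPM (counts scaled by the total of the library). The labelled tissue is kidney, but only 2 of 12 genes that mark kidney epithelium reached a TPM (a level per transcript length, scaled to the same sum in each library) of 1 in both libraries, namely LRP2 and PAX2, and 5 of the 12 had no count in either library.

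SR proteins carry RNA recognition motifs and a domain rich in arginine and serine, and they bind exonic enhancers and help the spliceosome to recognise exons. Many hnRNP proteins coat nascent transcripts and often act through silencers, so that the choice of an alternative exon depends on the balance of both families. The activity of SR proteins is set by phosphorylation, and many members of both families control their own mRNA by splicing in exons that lead to its decay.

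Sequence shared with other genes can bear on a count, since the reads were 50 bases long and a read that fits several genes was shared out among them. The pairs printed below are shown because a read of this length can fit both genes or tell them apart by few bases. The coding sequences of TRA2B and TRA2A share no identical run longer than 14 bases. HNRNPH1 and HNRNPH2, which bind runs of G, share a run of 50 bases, exactly the length of a read. HNRNPA1 and the retrotransposed gene HNRNPA1L3 share 334 bases in a row, and HNRNPA3 and its processed pseudogene HNRNPA3P6 share 519 bases. All sequences are from the GRCh37 genome, 5′ to 3′ on the strand of the gene, and capitals mark the bases that differ within a pair. The windows of the genes lie in coding exons, and that of HNRNPA3P6 lies in its annotated transcript. The window of HNRNPH1 (chr5:179044900-179045005, minus strand) spans an exon junction. The others are contiguous, HNRNPH2 at chrX:100667748-100667797, HNRNPA1 at chr12:54675988-54676037, HNRNPA1L3 at chr16:51680122-51680171, HNRNPA3 at chr2:178081253-178081302 and HNRNPA3P6 at chr3:75264276-75264325, all on the plus strand.
HNRNPH1: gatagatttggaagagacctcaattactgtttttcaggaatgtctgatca
HNRNPH2: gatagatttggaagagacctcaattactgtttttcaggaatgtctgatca
HNRNPA1: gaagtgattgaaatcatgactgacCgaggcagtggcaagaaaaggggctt
HNRNPA1L3: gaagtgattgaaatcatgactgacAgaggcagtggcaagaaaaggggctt
HNRNPA3: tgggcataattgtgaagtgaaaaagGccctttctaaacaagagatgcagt
HNRNPA3P6: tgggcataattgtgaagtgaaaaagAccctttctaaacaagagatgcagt
Within these windows HNRNPH1 and HNRNPH2 are identical, whereas each gene of the A type differs from its copy at 1 position. A read across that position could be told apart only by a single base.

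All 33 genes were detected, meaning that neither library gave a TPM under 1. Their median level was 308 TPM, against 21.2 TPM for the 12345 detected protein-coding genes, and it lay at percentile 97.6 of these genes. A level above 100 TPM was seen for 28 of the 33 genes, and 26 lay above percentile 95. The genes held 1.40% ± 0.0601 (SD, n = 2) of all TPM. The hnRNP and PTB genes held 1.06% ± 0.0531 and the SR and SR-like genes 0.346% ± 0.00707, so the ratio of the families was 3.12 in Replica 1 and 2.99 in Replica 2. The levels ranged from 9.20 TPM for SRSF12 to 1577 TPM for HNRNPA1, a 171-fold range.

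**Figure D1:**
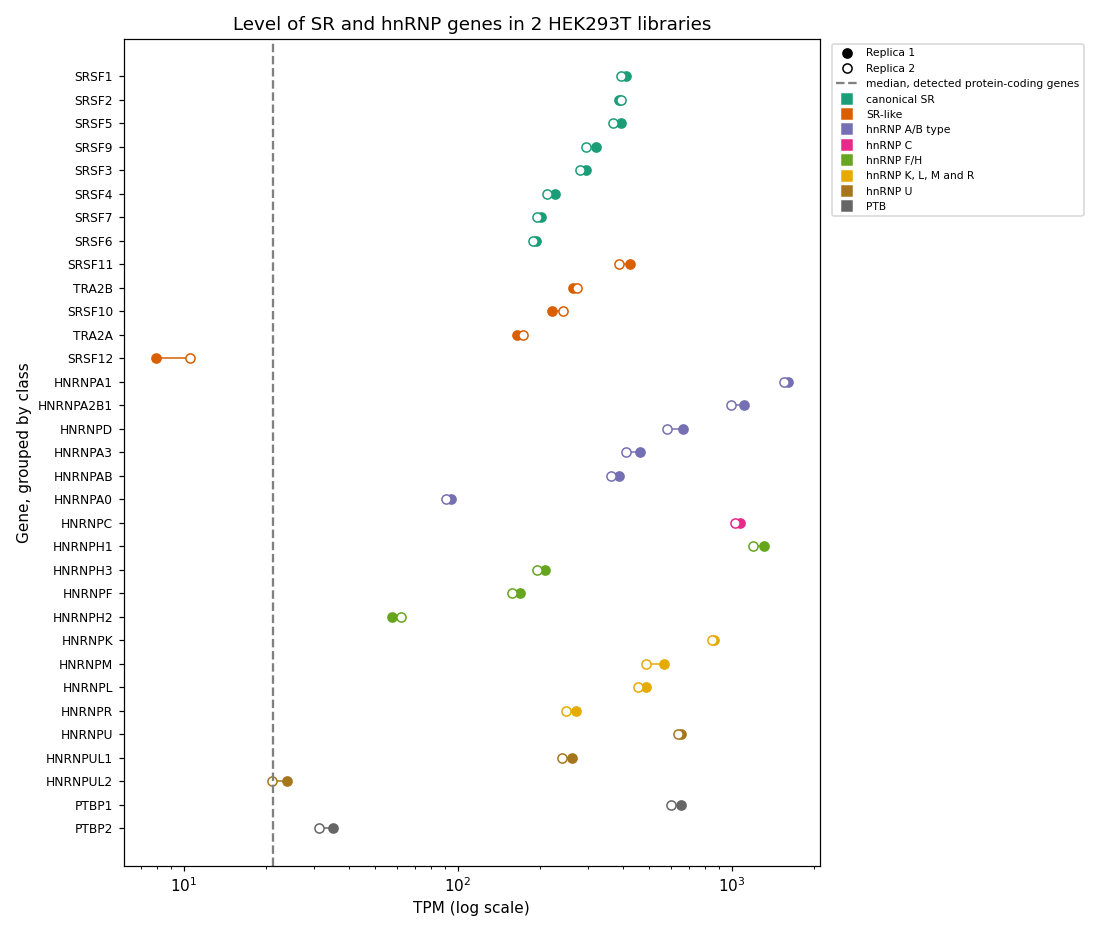
TPM (log axis) of the 33 genes grouped by class, with filled points for Replica 1, open points for Replica 2 and a dashed line at the median of detected protein-coding genes (21.2 TPM). Only SRSF12 lies below the line in both replicates, while HNRNPUL2 straddles it and HNRNPA1, HNRNPH1 and HNRNPC exceed 1000 TPM in both.

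The canonical SR genes lay close together, between 190 and 403 TPM with a median of 297 TPM. SRSF1, the prototype of the family, had 412 TPM in Replica 1 and 393 TPM in Replica 2. SRSF2, which marks nuclear speckles, had 389 and 393 TPM, and SRSF5 had 394 and 370 TPM. The values of these 3 genes overlapped between replicates, so their order was not resolved. SRSF9, an SR protein with a short tail of arginine and serine, followed with 321 and 295 TPM. SRSF3, the smallest SR protein and an adaptor of mRNA export, had 293 and 280 TPM, below SRSF9 in both replicates, but the 95% intervals of the pair overlapped. The lowest canonical genes were SRSF4 with 226 and 211 TPM, SRSF7, whose protein also has a zinc knuckle, with 202 and 196 TPM, and SRSF6 with 193 and 188 TPM. This order depends on the transcript length used. With the length of the canonical transcript of GENCODE release 44, SRSF2 led with 492 TPM, and SRSF4 (256 TPM) stood above SRSF3 (228 TPM) and SRSF1 (214 TPM).

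The SR-like genes were spread more widely. SRSF11 had 424 TPM in Replica 1 and 387 TPM in Replica 2, in the range of SRSF1. TRA2B, a human homologue of the fly Transformer-2 protein that binds enhancers rich in GAA, had 264 and 272 TPM, and TRA2A had 165 and 173 TPM. SRSF10, known as a repressor of splicing in its dephosphorylated form, had 220 and 243 TPM, or 63.9 TPM on average with the canonical length. SRSF12 was by far the lowest of all 33 genes, with 7.89 and 10.5 TPM from 114 and 137 estimated counts, at the percentile of 28.1 among detected protein-coding genes. Its replicates were far from those of the next gene, HNRNPUL2, which had 23.8 and 21.1 TPM.

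Among the genes of the hnRNP A/B type, HNRNPA1, whose protein binds UAG-containing silencers, led with 1604 TPM in Replica 1 and 1550 TPM in Replica 2. HNRNPA2B1 followed with 1105 and 994 TPM. HNRNPD, which binds elements rich in A and U, had 664 and 581 TPM, and HNRNPA3 had 464 and 411 TPM. HNRNPAB had 387 and 363 TPM. HNRNPA0, which in these files has a single transcript, was the lowest of the type with 94.7 and 90.9 TPM. All 6 genes of this type had a lower TPM in Replica 2.

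HNRNPC, whose protein binds tracts of U in nascent RNA, had 1069 and 1032 TPM. Its values overlapped with those of HNRNPA2B1, and the order of this pair was not resolved. In the F/H group the genes differed strongly. HNRNPH1 had 1317 TPM in Replica 1 and 1201 TPM in Replica 2, HNRNPH3 had 208 and 195 TPM, HNRNPF had 169 and 158 TPM, and HNRNPH2 had 57.5 and 62.2 TPM. HNRNPH1 had 50 transcripts listed, the most of any of the 33 genes, whereas HNRNPH2 had 1.

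HNRNPK, which binds runs of C, had 864 TPM in Replica 1 and 845 TPM in Replica 2. HNRNPM had 566 and 486 TPM, HNRNPL, which binds CA repeats, had 485 and 457 TPM, and HNRNPR had 270 and 249 TPM. HNRNPU, also known as scaffold attachment factor A, had 652 and 635 TPM, and its relative HNRNPUL1 had 261 and 241 TPM. PTBP1, the widely expressed polypyrimidine tract binding protein, had 654 and 599 TPM, and its neuronal paralogue PTBP2 had 35.1 and 31.1 TPM, at percentile 63.7. In all, 5 genes (HNRNPA1, HNRNPH1, HNRNPC, HNRNPA2B1 and HNRNPK) held 41.2% of the TPM of the 33 genes in Replica 1 and 41.3% in Replica 2.

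In the order of mean levels, 17 of the 32 neighbouring pairs did not overlap between replicates, and in 11 pairs the 95% intervals deposited with the TPM were also apart in both replicates. The latter were mostly at both ends of the order. From HNRNPL down to HNRNPAB no neighbours were apart by either measure, although HNRNPL and HNRNPAB at the ends of this stretch (471 and 375 TPM) were apart by both. This order, too, rests on the length given to each gene. With canonical lengths the mean of HNRNPA2B1 (731 TPM) lay below HNRNPK (743 TPM), and HNRNPA0 (47.2 TPM) lay below HNRNPH2 (87.6 TPM). PTBP2 (29.2 TPM) lay below HNRNPUL2 (32.1 TPM). These pairs were among the 11. HNRNPAB rose from rank 16 to 8, and HNRNPA1 led with 875 TPM. The deposited intervals describe a posterior mean that was lower than the TPM itself, with a median ratio of 0.932 in Replica 1 and 0.933 in Replica 2. For 24 of the 33 genes the TPM lay above its own interval in both replicates, which was so for 5.44% of detected genes and for 43.4% of genes above 100 TPM.

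The ratio of related genes was next compared. PTBP1 exceeded PTBP2 18.6-fold in Replica 1 and 19.3-fold in Replica 2, or by 4.24 ± 0.03 (SD, n = 2) on the log2 scale. HNRNPH1 exceeded HNRNPH2 22.9-fold and 19.3-fold, HNRNPU exceeded HNRNPUL1 2.50-fold and 2.64-fold, and TRA2B exceeded TRA2A 1.60-fold and 1.57-fold. HNRNPA2B1 stood at 0.689 and 0.642 of HNRNPA1. Each of these ratios varied between replicates by far less than its distance from equal levels. They rest, however, on the length given to each gene. With the length of the canonical transcript of GENCODE release 44 in place of the length used by the authors, the ratio of PTBP1 to PTBP2 was 20.1 and 18.9, that of HNRNPH1 to HNRNPH2 fell to 8.85 and 8.13, that of HNRNPU to HNRNPUL1 was 1.56 and 1.63, that of HNRNPA2B1 to HNRNPA1 was 0.850 and 0.821, and that of TRA2B to TRA2A became 0.709 and 0.768, so the direction turned. These canonical transcripts are often longer than those the authors used (8713 against 2965 bases for HNRNPA0, a gene with 1 transcript in the files). The reads are the same in both calculations, with 2470 and 2442 estimated counts for TRA2B and 1465 and 1337 for TRA2A.

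Other genes of the splicing machinery gave the context of these levels. The lists were made from textbook knowledge of splicing. Of 12 core spliceosome genes all were detected, with a median of 264 TPM, close to the 268 TPM of the SR and SR-like genes. The hnRNP and PTB genes had a median of 454 TPM. All 10 genes for SR protein kinases and import receptors were detected at a median of 47.6 TPM, led by the kinase SRPK1 at 148 TPM ± 6.13 (SD, n = 2) and with SRPK3 lowest at 1.99 TPM ± 0.601. Of 10 SR-related cofactors 9 were detected, with SRRM2 at 494 TPM ± 22.1, while SRRM4, a neuronal activator of microexons, had no count. Of 14 further hnRNP-type and related genes, SRSF8 was not matched by symbol to a row. Of the other 13 genes 12 were detected, led by PCBP2 at 732 TPM ± 29.7, and RALYL had no count. PTBP3, the remaining PTB paralogue, had 37.2 and 29.1 TPM, near PTBP2.

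The 29 regulators with a tissue-restricted role were lower, with 22 detected and a median of 9.54 TPM. KHDRBS1 (226 TPM ± 3.54), ELAVL1 (139 TPM ± 6.72) and CELF1 (121 TPM ± 8.65) led this list, and all 3 are known to be widely expressed. RBFOX2 had 88.1 TPM ± 3.66, while RBFOX1 had no count and RBFOX3 had 22 estimated counts in each library. The epithelial regulator ESRP2 had 18.4 and 14.7 TPM, and ESRP1 had 1 and 3 counts, at or under the limit of 3 counts. The neuronal regulators were mixed. ELAVL3 and ELAVL4 had at most 1 count in a library, whereas ELAVL2 had 194 and 205 counts, NOVA1 had 231 and 224, and NOVA2 had 162 and 125.

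**Figure D2:**
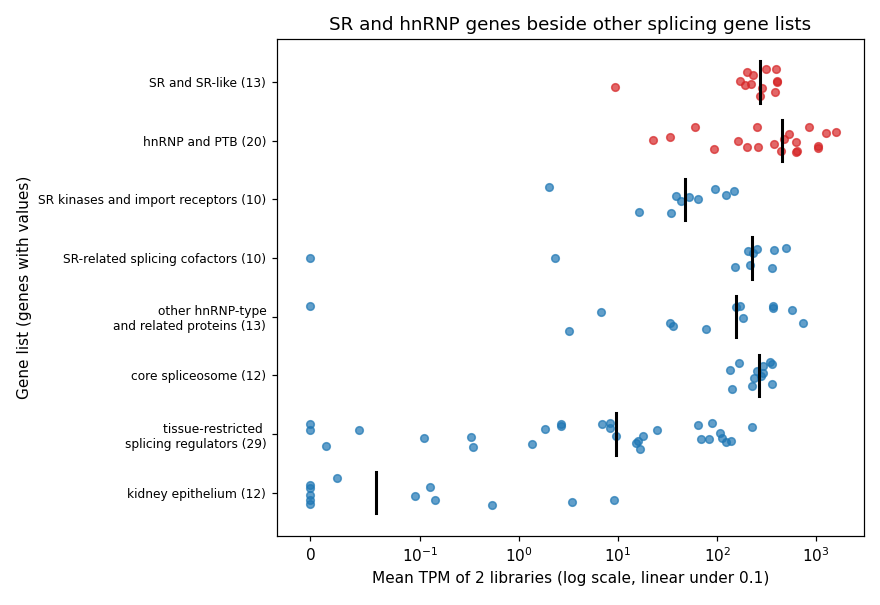
Mean TPM of the 2 libraries (log axis, linear under 0.1) for each gene of the SR and hnRNP families (red) and of 6 other lists (blue), with a black line at the median of each list. The medians of the SR and SR-like genes (268 TPM) and of the core spliceosome (264 TPM) lie close together, and that of the tissue-restricted regulators (9.54 TPM) lies far to the left.

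To see how well these levels were repeated, the replicates were compared. Across the 33 genes, which are not independent replicates, Pearson's correlation of log2(TPM + 1) was 0.998, a description with no test. The median absolute difference on this scale was 0.09, against 0.14 for detected genes and 0.07 for genes above 100 TPM. The estimated counts were rounded and set against library sizes scaled by TMM in an exact binomial test, adjusted by the Benjamini-Hochberg method over 17920 genes. This test compares these 2 libraries, not conditions, and covers counting error only. It called 5 of the 33 genes, against 3.88% of all genes tested and 6.76% of the 4821 genes with at least 1000 counts in both libraries together, a depth that 31 of the 33 genes reached.

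Of the genes called, SRSF10 differed most, with 2248 estimated counts in Replica 1 and 2456 in Replica 2, a log2 ratio of 0.21 (95% interval 0.12 to 0.29, adjusted p = 0.000114 by the exact binomial test). SRSF1 was also higher in Replica 2, by 0.11 (0.06 to 0.17, adjusted p = 0.00236). Lower in Replica 2 were HNRNPUL1, with a log2 ratio of -0.11 (adjusted p = 0.00468), HNRNPD with -0.10 (adjusted p = 0.00579) and HNRNPA2B1 with -0.06 (adjusted p = 0.0375). The largest ratios among the genes that did not pass were 0.34 for SRSF12 (-0.03 to 0.71) and -0.19 for HNRNPUL2 (-0.33 to -0.05), on 114 and 137 counts for SRSF12 and 879 and 730 counts for HNRNPUL2. Scaled counts were lower in Replica 2 for 17 of the 20 hnRNP and PTB genes (median log2 ratio -0.04) but for 3 of the 13 SR and SR-like genes (median 0.05). Of all detected genes 49.2% were lower, with a median of 0.00, and of genes above 100 TPM 56.7%, with a median of -0.01. On the TPM scale 19 of the 20 hnRNP and PTB genes and 8 of the 13 SR and SR-like genes were lower in Replica 2. The opposite direction of the families was thus seen on counts only. With RLE scaling the counts were lower for 18 of the 20 and 5 of the 13 genes, against 8740 of 15997 detected genes. With total counts they were lower for 17 and 4, against 8258 of the detected genes. The difference between the families was not tested. In 4 of the other lists the test called 1 of 10 genes for SR kinases and import receptors (TNPO1, higher in Replica 2, log2 ratio 0.13), 2 of 9 SR-related cofactors (SRRM2 and ACIN1, lower, -0.09 and -0.16), 1 of 12 core spliceosome genes (U2AF2, lower, -0.11) and 1 of 23 tissue-restricted regulators (MBNL1, higher, 0.23).

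**Figure D3:**
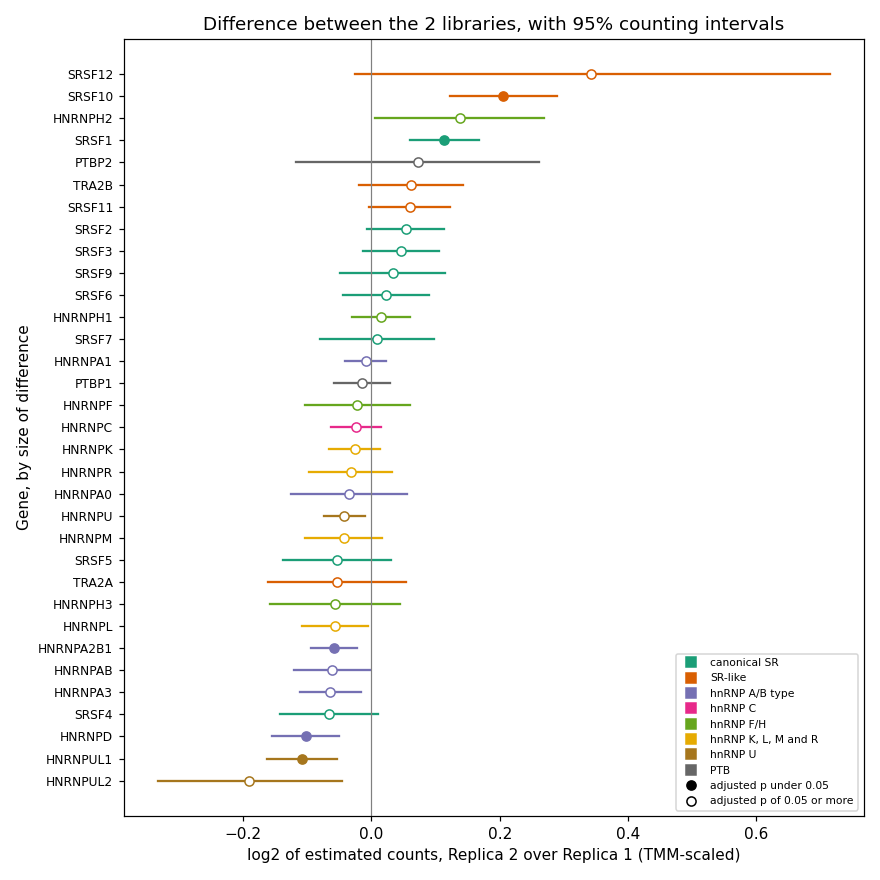
Log2 ratio of TMM-scaled estimated counts, Replica 2 over Replica 1, for each gene, with bars for the 95% interval of counting error and filled points for an adjusted p under 0.05. The filled points of SRSF10 and SRSF1 lie to the right, those of HNRNPA2B1, HNRNPD and HNRNPUL1 to the left, and most bars cross 0.

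The TPM scale also contains the length assigned to a gene. The TPM was lower in Replica 2 for 27 of the 33 genes, with a median log2 difference of -0.09, against 56.4% and -0.03 for detected genes and 71.0% and -0.05 for genes above 100 TPM. SRSF1 had more scaled counts in Replica 2 but a lower TPM. The length in these files is a mean over the transcripts of a gene weighted by their estimated share. It was longer in Replica 2 for 24 of the 33 genes, or 72.7%, against 43.0% of detected genes and 55.6% of genes above 100 TPM. It changed by more than 5% for 11 of the 33 genes, or 33.3%, against 43.3% of detected genes and 23.7% of genes above 100 TPM.

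PTBP2 had the largest change. Its counts were 463 and 461, its length was 1817 bases in Replica 1 and 2114 bases in Replica 2, and its TPM was 35.1 and 31.1. The length of SRSF11 was 1369 and 1532 bases, that of SRSF1 1809 and 2013 bases and that of HNRNPM 1157 and 1282 bases. TRA2A went the other way, with 1237 and 1122 bases, so that its TPM was 165 and 173 on counts of 1465 and 1337. The 33 genes have many transcripts, with a median of 12 listed. This median was 7 for detected protein-coding genes and 10 for protein-coding genes above 100 TPM. Reads of 50 bases leave the shares of transcripts uncertain, and whether the use of isoforms differed between the libraries was not tested.

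**Figure D4:**
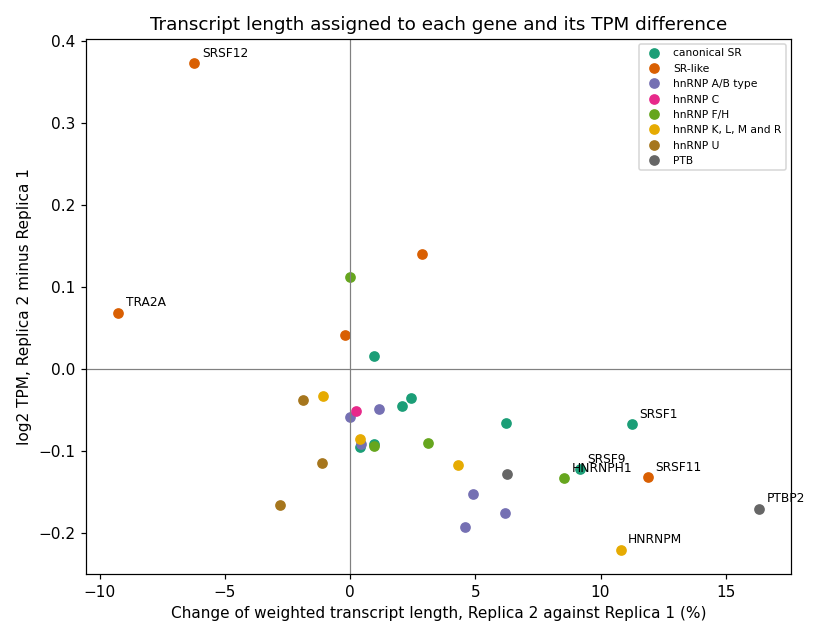
Log2 TPM of Replica 2 minus Replica 1 against the change of weighted transcript length between the replicates in percent, 1 point for each gene, coloured by class. PTBP2, SRSF11, SRSF1 and HNRNPM lie to the right with a lower TPM in Replica 2, and TRA2A and SRSF12 lie to the left with a higher TPM; TPM contains the length by definition.

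Finally, the counts were examined for reads shared with other genes. The posterior SD that the authors deposited beside each count was 0 in both libraries for 8 of the 33 genes. Averaged over both libraries it was below 0.1% of the count for 24 genes and above 1% for 1, and HNRNPA3 had 1.03% in Replica 1 and 0.964% in Replica 2. The median posterior SD was 0.0228%, against 0.0647% for detected genes and 0.0369% for genes above 100 TPM. A posterior SD above 1% was found for 26.6% of detected genes and 7.74% of genes above 100 TPM. The gene above 1% on average was HNRNPUL2, with 3.63%. The read-through gene HNRNPUL2-BSCL2 holds 43.4% of the 50-base words found in the transcripts of HNRNPUL2, and it was given 911 and 807 counts, more than HNRNPUL2 itself with 879 and 730. The sum of both was 1790 and 1537. By this measure HNRNPUL2 had the least certain count of the 33 genes.

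A large share of common words did not always go with an uncertain count. SRSF9 shares 44.4% of its words with GATC, a gene on the opposite strand, yet its posterior SD was 0.0119%. None of its words was shared on the same strand, and GATC had 881 and 756 counts. No source used here states if strand entered the counting, so how reads of these overlapping genes were separated is unknown. SRSF2 shares 20.9% of its words with MFSD11 (258 and 219 counts), and only 1.54% of its words are shared on the same strand. The posterior SD was 5.04 and 4.77 counts for SRSF2, and 5.73 and 5.28 counts for MFSD11. Whether reads were shared between the strands was not tested. SRSF1 shares 30.4% with ENSG00000266086, which was given only 78.7 and 47.7 counts. Unlike that of SRSF9, the posterior SD of SRSF2 (0.112% on average) and SRSF1 (0.187%) lay above the median of 0.0228% for both families. SRSF4, SRSF7, TRA2A, HNRNPA0, HNRNPF and HNRNPM shared no word with another gene.

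**Figure D5:**
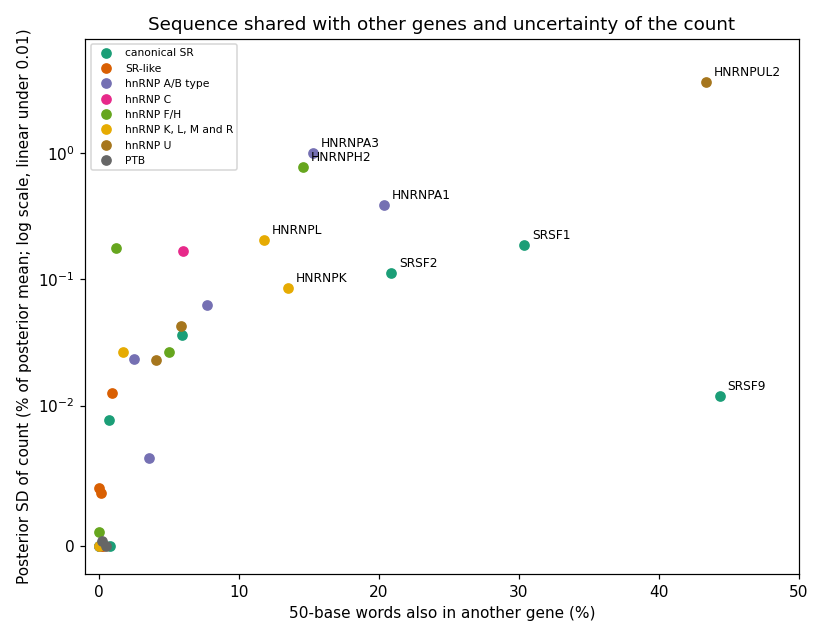
Posterior SD of the estimated count in percent of its posterior mean (mean of 2 libraries; log axis, linear under 0.01) against the percentage of 50-base words of a gene that occur in another gene, 1 point for each gene. HNRNPUL2 is at the upper right (43.4% of words, posterior SD 3.63%), and SRSF9 has a similar share of words (44.4%) but a posterior SD of 0.0119%.

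The pseudogenes of the families were counted next. By name 130 copies were found, 74 of them of HNRNPA1, 16 of HNRNPA3 and 9 of HNRNPC. Counts were given to 58 copies in Replica 1 and to 60 in Replica 2. Together they held 0.993% and 0.980% of the reads of the genes and their copies. For HNRNPA3 the share was 10.9% and 10.8%, nearly all of it at HNRNPA3P6, which was given 895 and 793 counts, or 120 TPM ± 7.07 (SD, n = 2), with a posterior SD of 8.60% and 8.52%. For HNRNPC the share was 4.09% and 4.02%, with 451 and 421 counts at HNRNPCP2. For HNRNPA1 the share at its 74 copies was 1.27% and 1.44%.

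HNRNPA1L3, which is annotated as protein-coding and is not among the named copies, was given 332 and 243 counts with a posterior SD of 66.3 and 53.0 counts, and HNRNPA1L2 was given 148 and 146. The posterior SD of HNRNPA1 itself was 66.6 and 54.1 counts on 16142 and 15198, or 0.385% on average. The windows of HNRNPA1 and HNRNPA1L3 printed above were placed at an edge of their longest shared run, so they do not describe the whole genes. Of all words of HNRNPA1, 20.4% also occur in another gene. For HNRNPA1L3 the posterior SD was 20.1% and 19.4% of the posterior mean. HNRNPH2 shares 14.6% of its words, mostly with the read-through gene RPL36A-HNRNPH2, and had a posterior SD of 0.772%. Values of all genes with near-identical copies remain estimates of how reads were shared out.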

How the data were processed

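Poly(A)+ RNA of HEK293T cells was sequenced in 2 libraries with reads of 50 bases. Per the submitters' processing notes, Trimmomatic 0.36, STAR 2.6.1c and RSEM 1.3.1 were used; the study's methods name GRCh37 with Ensembl release 87 genes and featureCounts, but the columns are those RSEM writes. The estimated counts (expected counts), TPM and FPKM were deposited by the authors, as were the scores that give the posterior SD of each count and the bounds of a 95% TPM interval. A table of pooled reads was not used.

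Symbols came from GENCODE release 44 on GRCh37 (55501 identifiers matched). The 33 genes and the lists were chosen with earlier results of these data known, and all 33 are named. Genes of the lists, annotated copies, read-through and overlapping genes could be named too. The comparison of libraries used the binomial test of scipy 1.17.1 (exact, two-sided) on rounded counts, with sizes scaled by TMM (edgeR 4.0.16, R 4.3.3), for genes whose summed count reached 10, with adjusted p under 0.05 as the call; 0.5 counts were added for ratios. With 1 library a side, a quasi-likelihood test had no residual degrees of freedom. Tested on simulated data for 17954 genes, the binomial test found 158 of the 200 that were given a 1.5-fold change and made 4 false calls. The simulated counts varied by counting error alone, and the changes were given to genes with a mean count of at least 50. The false calls therefore do not cover other variation between real libraries. Words of 50 bases were read from release 44 sequences of the transcripts listed in the files, which can differ from those the authors used. Copies were found by name or by BLAST 2.17.0 (at least 90% identity over 200 bases). Alternatives were other thresholds, filters, scalings and units, and leaving out each replicate. The intervals of the log2 ratios cover counting error only. The TPM intervals are those deposited for each library, and no interval covers variation between cultures.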

Additional observations from a re-analysis of the deposited data

How the results depend on the processing

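No paired analysis was possible because both libraries belong to 1 group. Of 65 alternatives, 43 left the value within the spread between replicates or the count within 1.5 times. Part of these 43 was fixed in advance. Where a value is the mean of both replicates, leaving 1 out moves it by less than their SD. Medians over genes are not fixed in this way. Without Replica 2 the percentile of the median level was 97.67 in place of 97.56. The median posterior SD was then 0.0178% in place of 0.0228%. A lower threshold cannot lose a detected gene, and PTBP1, PTBP2, TRA2A and TRA2B have no named copy to add. The 43 is therefore not a measure of robustness. All 33 genes were detected under every threshold tried (TPM of 0.1 and 5, FPKM of 1, 10 counts, either replicate alone). Between 4 and 7 genes differed between the libraries under the 5 other settings. There were 7 with RLE, against 4.2% of all genes tested, and 6 with total counts, against 3.93%. A summed count of 100 gave 5, against 4.26%. With no filter there were 4, against 1.84%, and with posterior mean counts 4, against 2.46%. SRSF1, SRSF10, HNRNPD and HNRNPUL1 were called in each setting. HNRNPA2B1 was not called with no filter or with posterior mean counts.

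The median level was 285 TPM with posterior means and 218 in FPKM, and 295 to 321 TPM with either replicate left out. Its percentile was 99.4 among all genes with a row, 97.8 among all detected genes, and 97.6 to 97.7 with either replicate left out. The ratio of hnRNP to SR levels was 3.35 on estimated counts, 2.6 without HNRNPA1, and 2.99 to 3.12 with either replicate left out. The median absolute log2 difference was 0.054 on TMM-scaled counts and 0.082 in FPKM. The median width of the TPM interval was 9.71% of the level, in place of the posterior SD of 0.0228%, which was 0.0178% to 0.0215% with either replicate left out. The share at copies was 1.71% of TPM and 0.980% to 0.993% with either replicate left out. The log2 ratio of PTBP1 to PTBP2 was 4.21 with posterior mean TPM.

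Canonical lengths and the wider set of copies were tried after seeing the data. With canonical lengths the median level was 256 TPM at percentile 96.6, the ratio of hnRNP to SR levels was 2.75, and the log2 ratios were 4.29 for PTBP1 over PTBP2, 3.08 for HNRNPH1 over HNRNPH2, -0.26 for HNRNPA2B1 over HNRNPA1, 0.67 for HNRNPU over HNRNPUL1 and -0.44 for TRA2B over TRA2A, where the sign turned. The share at copies was 1.24% with HNRNPA1L2 and HNRNPA1L3 included. With 2 libraries, depth limits SRSF12 most.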

Other observations

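Promoters from 250 bases before to 50 bases after the start were available in RefSeq (GRCh38) for 30 of the 33 genes, and HNRNPA1, SRSF2 and TRA2A had no entry. Their median GC content was 64.5%, against 65.7% for 10019 detected protein-coding genes and 58.3% for 27305 promoters in all. The letters TATAAA were found on either strand in 5 of the 30 promoters (16.7%, against 5.42% of detected protein-coding genes and 11.95% of all), CCGGAAG in 4 (13.3%, against 19.7% and 10.7%) and GGGCGG in 21 (70.0%, against 71.7% and 44.6%). These are matches of letters in a window and were not tested.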
